A study of Mus musculus with 32 samples.

Results

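Interferon-stimulated genes, the genes that a cell switches on when interferon reaches it, were followed in liver and 3 fat depots of *Gpr146* knockout and wild-type mice. The 34 members were chosen by symbol from the gene column of the 4 expression tables, out of 24646 genes measured. They are genes known from the literature of interferon, and no threshold on a measured value chose them. The list was drawn up with earlier results of these data known, so shares of the members beside all genes are descriptions. They fall into 7 roles, which are sensors of viral RNA, transcription factors, the IFIT and ISG15 system, the OAS family, other antiviral effectors, interferon-inducible GTPases and antigen processing.

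Interferons are signalling proteins released by cells that detect a virus or other danger. Type I interferons bind the receptor made of IFNAR1 and IFNAR2, and the kinases JAK1 and TYK2 then activate a complex that holds STAT2 and IRF9 and binds a DNA element called the interferon-stimulated response element (ISRE). Type II interferon, or IFN-γ, acts through IFNGR1 and IFNGR2 on genes that carry the gamma-activated sequence (GAS), and it induces *Irf1* and many GTPases. In fat and liver, macrophages, lymphocytes and the parenchymal cells themselves can all carry this response.

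All mice were males on a high-fat diet (HFD) for 3 months, 20 weeks old, and fasted overnight. The wild-type group was *Gpr146*+/+ and the knockout group *Gpr146*-/-, bred from heterozygous parents, so the receptor was missing from every cell type of the knockout and not from 1 tissue. The strain background was C57BL/6. GPR146 is a G protein-coupled receptor. Liver, epididymal white fat (eWAT), inguinal white fat (iWAT) and brown fat (BAT) were each hybridised to Affymetrix Mouse Gene 2.1 ST arrays. Each genotype had 4 mice, and each mouse gave 1 array per tissue, 32 arrays in all. The labels number the mice, and a number stands for the same mouse of a genotype in every tissue, but wild-type and knockout mice of 1 number are different animals. Values are log2 expression values, so that a difference of 1 is a doubling, and levels of different genes are not compared because each gene has its own probes.

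The targeted gene checked the labels. *Gpr146* measured between 6.17 and 6.32 in wild-type and between 4.26 and 4.63 in knockout liver, and in eWAT, iWAT and BAT every knockout mouse also lay below every wild-type mouse. The titles of the 4 knockout liver samples name both genotypes, and their other labels say knockout. Hepatocyte markers averaged between 10.45 and 10.68 in liver, adipocyte markers between 9.68 and 10.20 in both white depots, and brown adipocyte markers between 8.76 and 9.58 in BAT. Markers of epididymis averaged at most 2.25 in eWAT. Some arrays stood apart. In eWAT, macrophage markers of knockout mouse 2 lay near the wild-type values and far above the other 3 knockout mice. In iWAT, B cell markers were high in wild-type mice 1 and 2 and knockout mice 2 and 4, and T cell markers in the first 3 of these. In BAT, skeletal muscle markers were high in wild-type mice 2 and 3 and knockout mouse 2.

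Each knockout was compared with wild type within a tissue by limma, a linear model fitted gene by gene that steadies each variance with those of the other genes. The Benjamini-Hochberg adjustment took in all 24646 genes. A gene was called at an adjusted p below 0.05. In eWAT, 8 of the 34 members were called (23.5%), against 15.2% of all genes. In liver, iWAT and BAT, 0 members were called, against 0.661%, 0.0% and 0.0284% of all genes. Without adjustment, limma gave 3, 7 and 5 members a p below 0.05 in these tissues, and 13 in eWAT, where 29.8% of all genes had one. The methods' t-test gave 2, 1 and 4 in liver, iWAT and BAT and 9 in eWAT before adjustment, beside 11.8%, 12.8%, 11.4% and 27.6% of all genes. After adjustment it gave 0 members in each, beside 0.00811%, 0.00406%, 0.0% and 0.154% of all genes. The median change of the 34 members, knockout minus wild type, was 0.04 in liver, -0.10 in eWAT, -0.39 in iWAT and -0.11 in BAT on the log2 scale, beside medians over all genes of 0.01, 0.03, 0.02 and 0.00. The knockout mean was the lower one for 15 members in liver, 22 in eWAT, 29 in iWAT and 24 in BAT, beside 46.9%, 43.5%, 46.8% and 49.2% of all genes. This background shifted with the level of the genes. With the genes below the median level of a tissue left out, 55.8%, 59.1%, 65.8% and 60.9% of the 12323 genes that remained were lower in the knockout, with medians of -0.02, -0.08, -0.11 and -0.05, and the 28, 29, 28 and 26 members among them had medians of 0.05, -0.19, -0.42 and -0.12. In eWAT the share called was then 31.1% of all genes and 27.6% of the members, and for calls lower in the knockout 22.3% and 20.7%, so that neither share of the members was above that of all genes.

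**Figure D1:**
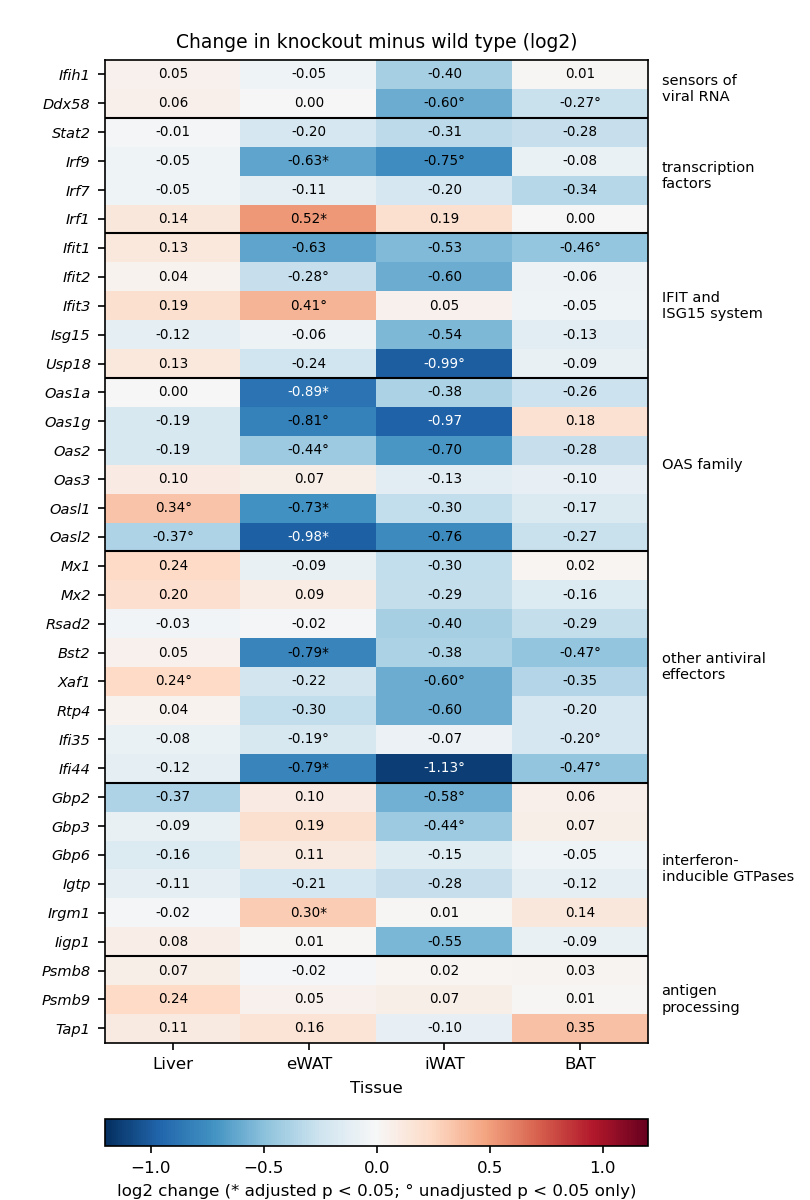
Change of each of the 34 members (rows, grouped by role) in the 4 tissues (columns), as the mean of 4 knockout minus the mean of 4 wild-type mice on the log2 scale. An asterisk marks an adjusted p below 0.05, which occurs in eWAT alone for 8 members, and a small circle marks a p below 0.05 before adjustment only.

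In eWAT, some members of the OAS family, some other antiviral effectors and *Irf9* were called lower in the knockout, while *Irf1* and *Irgm1* were called higher. Of the 8 calls, 6 were lower (17.6% of the members, against 10.7% of all genes) and 2 were higher (5.88%, against 4.57%). With the genes below the median level left out, the lower calls were 20.7% of the members and 22.3% of all genes, so this excess was not seen there. All 4 knockout mice lay below all 4 wild-type mice for 6 members, beside 13% of all genes, and above them for 2, beside 8.63%. By role, 3 of 6 OAS genes were called, all lower, as were 2 of 8 other antiviral effectors, both lower. Of the 4 transcription factors, 1 was lower and 1 higher, and of the 6 GTPases 1 was higher. None of the 2 RNA sensors, 5 genes of the IFIT and ISG15 system and 3 antigen processing genes passed the test.

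The OAS enzymes sense double-stranded RNA and make 2′-5′ oligoadenylates, which activate RNase L, and the OAS-like proteins belong to the same family. *Oasl2* measured 6.53, 6.40, 6.5 and 6.82 in the wild-type eWAT of mice 1 to 4 and 5.17, 6.42, 5.81 and 4.91 in the knockout. Knockout mouse 2 lay within the wild-type range and the other 3 below it. The mean fell from 6.56 ± 0.18 (SD, n = 4) to 5.58 ± 0.68 (SD, n = 4), a change of -0.98 (SE 0.29, limma adjusted p = 0.0476). *Oas1a* measured 3.47, 3.56, 3.87 and 4.14 in wild type and 2.4, 3.46, 3.22 and 2.39 in knockout. The groups did not overlap, but the highest knockout mouse, again mouse 2, lay next to the lowest wild-type mouse. Its change was -0.89 (SE 0.26, limma adjusted p = 0.0463). *Oasl1*, which is known to hold back the translation of IRF7, measured 4.24, 3.96, 4.46 and 4.27 in wild type and 3.53, 3.67, 3.38 and 3.42 in knockout. The groups did not overlap, and knockout mouse 2 was close to the other knockout mice. Its change was -0.73 (SE 0.11, limma adjusted p = 0.00908), the smallest p of the members in this depot. *Oas1g*, a close paralog of *Oas1a*, gave -0.81 (adjusted p = 0.0911), *Oas2* -0.44 (0.133) and *Oas3* 0.07 (0.669), and none of these passed.

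*Bst2* encodes tetherin, which holds budding virus particles at the cell membrane. It measured 7.58, 7.66, 7.81 and 8.0 in wild-type and 7.21, 7.34, 6.43 and 6.88 in knockout eWAT. The groups did not overlap, and here knockout mice 3 and 4 were the lowest, not mice 1 and 4. The mean fell by 0.79 (SE 0.19, limma adjusted p = 0.0228). *Ifi44*, an interferon-induced gene with antiviral activity, measured 5.68, 5.44, 5.34 and 6.18 in wild type and 4.60, 4.94, 4.94 and 5.02 in knockout. All 4 knockout mice lay below the lowest wild-type mouse, and wild-type mouse 4 was the highest. Its change was -0.79 (SE 0.18, limma adjusted p = 0.0195). The other 6 antiviral effectors had changes between -0.30 (*Rtp4*) and 0.09 (*Mx2*) and were not called.

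Among the transcription factors the calls ran in both directions. *Irf9*, the DNA-binding partner of STAT2, measured 5.96, 5.89, 5.83 and 5.93 in wild type and 4.92, 5.67, 5.21 and 5.26 in knockout. The groups did not overlap, and knockout mouse 2 was the closest to wild type. Its change was -0.63 (SE 0.14, limma adjusted p = 0.0184). *Irf1*, a factor induced by IFN-γ, measured 5.10, 5.02, 5.20 and 5.13 in wild type and 5.52, 5.48, 5.88 and 5.65 in knockout. Every knockout mouse was above every wild-type mouse, mouse 2 included. The mean rose by 0.52 (SE 0.10, limma adjusted p = 0.0127), which is 1.43-fold. *Stat2*, IRF9's partner, gave -0.20 (adjusted p = 0.336), and *Irf7*, which amplifies type I interferon production, -0.11 (0.702).

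The interferon-inducible GTPases act against bacteria and parasites inside cells. *Irgm1* measured 4.01, 3.93, 3.83 and 3.92 in wild type and 4.19, 4.43, 4.14 and 4.13 in knockout eWAT, without overlap. It rose by 0.30 (SE 0.09, limma adjusted p = 0.0492), just inside the threshold. *Gbp6* had the lowest wild-type mean of the members in eWAT, with 2.1, 1.72, 1.90 and 1.98 in wild type and 1.89, 2.36, 1.89 and 1.99 in knockout, which overlapped. The other 5 GTPases, *Gbp6* included, had changes between -0.21 (*Igtp*) and 0.19 (*Gbp3*). In the IFIT and ISG15 system, *Ifit1*, whose protein binds foreign RNA caps, measured 4.52, 4.38, 4.57 and 4.68 in wild type and 3.47, 4.92, 3.39 and 3.85 in knockout. Knockout mouse 2 was the highest of all 8 mice and the other 3 the lowest, and *Ifit1* was not called (change -0.63, SE 0.29, adjusted p = 0.184). *Ifit3* gave 0.41 (adjusted p = 0.141), *Ifit2* -0.28 (0.129), *Usp18*, which removes ISG15 from proteins and blocks IFNAR2 signalling, -0.24 (0.373) and *Isg15* -0.06 (0.722). The immunoproteasome genes *Psmb8* and *Psmb9* gave -0.02 and 0.05, and the peptide transporter gene *Tap1* 0.16.

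**Figure D2:**
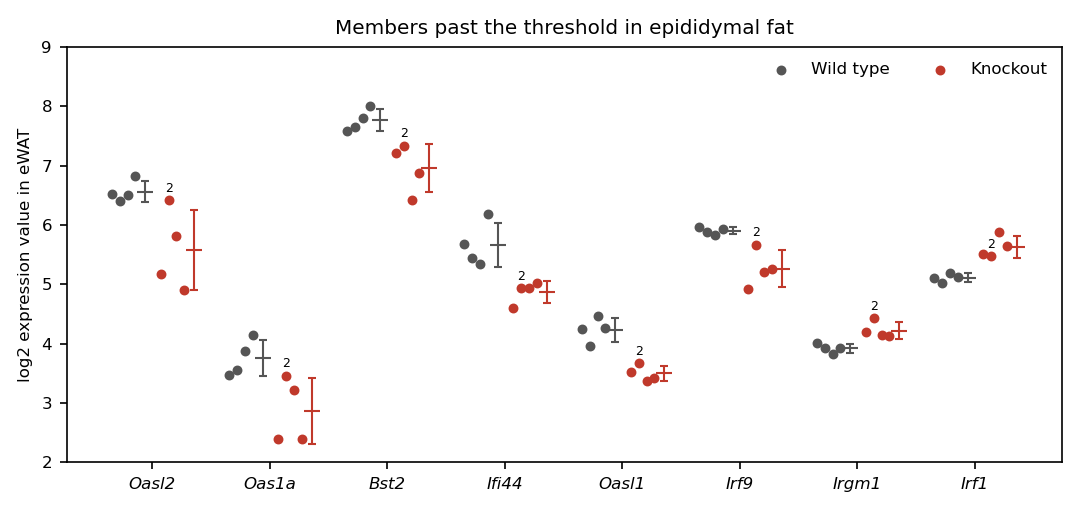
log2 expression values in eWAT of the 8 members with an adjusted p below 0.05, as single wild-type mice (grey) and knockout mice (red) in the order of their numbers, with mean and SD at the right of each group and knockout mouse 2 numbered. Knockout mouse 2 is at 6.42 in *Oasl2* and 3.46 in *Oas1a*, next to the wild-type mice, while in *Irf1* and *Irgm1* all 4 knockout mice are above wild type.

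Knockout mouse 2 moved several of these values. Without it, 12 members (35.3%) were called in eWAT, 11 lower and 1 higher, while 5429 of all genes (22.0%) were called. *Oasl2* then changed by -1.26 (limma adjusted p = 0.00181) and *Ifit1* by -0.96 (0.000665), and *Ifit2*, *Oas1g*, *Usp18* and *Xaf1* were also called, whereas *Irgm1* gave 0.23 and was lost (0.0661). *Irgm1* lost its call whichever of the 8 mice was left out (adjusted p from 0.0525 to 0.124), and *Oasl2* lost it in every case except without knockout mouse 2, with adjusted p of up to 0.127. *Oasl1* and *Irf1* kept their call whichever mouse was left out, with adjusted p of at most 0.0349 and 0.0469. Leaving out 1 wild-type mouse left 3 calls without mouse 1, 2 or 4 and 4 without mouse 3, beside 5.88% to 9.33% of all genes. Leaving out knockout mouse 1 or 4 left 4 and mouse 3 left 6, beside 8.4% to 13% of all genes. Quantile normalization left 5 calls, 2 higher (5.88%, against 7.43% of all genes) and 3 lower (8.82%, against 7.75%), and the median of the members was then -0.03, with 18 of 34 lower (52.9%, against 46.2% of all genes).

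Macrophage markers moved with genotype in the same depot, and so did those of other cells. Of 8 macrophage markers, 7 were called lower in knockout eWAT, and their mean log2 value ranged from 8.42 to 8.65 in wild-type mice and was 6.28, 8.07, 6.89 and 6.54 in knockout mice 1 to 4. Of 8 markers of lipid-associated macrophages, 7 were called lower, with means from 8.37 to 8.61 in wild type and 5.50, 8.07, 6.54 and 5.69 in knockout. The mouse nearest to wild type in both lists was knockout mouse 2. Of 5 adipocyte markers, 4 were called higher and 1 lower, with means from 9.73 to 9.79 in wild type and from 9.78 to 10.10 in knockout, and of 5 endothelial markers 1 was called higher, with means from 7.59 to 7.66 and from 7.62 to 8.04. B cell markers averaged 4.46 in knockout mouse 3 and between 2.56 and 3.03 in the other 7 mice, and markers of plasmacytoid dendritic cells 3.42 in that mouse and between 2.71 and 2.88 in the others. In bulk tissue, fewer cells of a type and less RNA per cell cannot be told apart, and the part of these cells in the changes of the members was not tested.

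The promoters of the members were searched for the cores of both elements, ISRE and GAS. The windows were those of RefSeq (GRCm38.p6), 250 bases before to 50 after the start site, and 27 of the 34 members had one or more, 31 windows in all. *Usp18*, *Oas2*, *Mx1*, *Mx2*, *Rtp4*, *Gbp6* and *Iigp1* had no entry. The ISRE core was taken as TTTC, any 2 bases and TTTC, read on both strands so that GAAA, any 2 bases and GAAA also counts, and the GAS core as TTCNNNGAA, which reads the same on both strands. Matches may overlap each other. The ISRE core was found in 15 of the 27 members (55.6%), beside 3.99% of all 27025 genes with a window, and the GAS core in 7 (25.9%), beside 9.55%. Over all 32851 windows, rather than genes, these shares were 3.44% and 8.30%. The GTPases with an entry, *Gbp2*, *Gbp3*, *Igtp* and *Irgm1*, all held the ISRE core, and the 3 antigen processing genes held none. Of the 8 members called in eWAT, *Oas1a*, *Bst2* and *Irgm1* held the ISRE core and *Oas1a*, *Bst2* and *Irf1* the GAS core, while *Oasl1*, *Oasl2*, *Ifi44* and *Irf9* held neither in this window. A match is a description of the letters and says nothing of whether a factor was bound. The members were chosen as interferon-stimulated genes, so their shares of both cores describe the list and not the effect of the knockout.

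The stretches just before the start site are shown for called members that hold a match, for *Oas1g* as the near copy of *Oas1a*, and for *Igtp*, *Isg15* and *Ifit1* as uncalled members with the same core. Each is written 5′ to 3′ on the strand of its gene and ends at the base before the start site. Matches are in capitals.
*Oas1a* (chr5:120907526-120907645, minus strand): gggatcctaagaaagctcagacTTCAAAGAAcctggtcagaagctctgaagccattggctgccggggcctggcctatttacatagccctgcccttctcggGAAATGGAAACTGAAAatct
*Oas1g* (chr5:120887614-120887733, minus strand): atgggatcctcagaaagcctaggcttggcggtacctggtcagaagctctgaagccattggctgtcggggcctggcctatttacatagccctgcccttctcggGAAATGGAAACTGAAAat
*Bst2* (chr8:71537473-71537622, minus strand): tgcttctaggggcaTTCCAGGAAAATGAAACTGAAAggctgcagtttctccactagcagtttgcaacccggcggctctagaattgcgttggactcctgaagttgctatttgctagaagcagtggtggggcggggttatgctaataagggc
*Irgm1* (chr11:48871421-48871540, minus strand): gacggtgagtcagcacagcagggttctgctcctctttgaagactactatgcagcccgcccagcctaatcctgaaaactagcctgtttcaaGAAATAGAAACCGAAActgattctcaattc
*Igtp* (chr11:58199436-58199555, plus strand): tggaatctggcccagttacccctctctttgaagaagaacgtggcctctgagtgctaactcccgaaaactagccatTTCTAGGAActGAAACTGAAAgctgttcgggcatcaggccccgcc
*Isg15* (chr4:156200819-156200938, minus strand): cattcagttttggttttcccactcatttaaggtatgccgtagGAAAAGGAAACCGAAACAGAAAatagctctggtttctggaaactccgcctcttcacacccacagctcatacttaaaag
*Ifit1* (chr19:34640769-34640888, plus strand): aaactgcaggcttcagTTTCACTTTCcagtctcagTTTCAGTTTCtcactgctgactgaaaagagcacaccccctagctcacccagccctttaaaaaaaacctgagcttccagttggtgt
*Irf1* (chr11:53769894-53770013, plus strand): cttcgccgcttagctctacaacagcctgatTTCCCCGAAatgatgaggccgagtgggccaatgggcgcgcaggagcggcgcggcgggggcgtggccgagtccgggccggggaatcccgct
*Oas1a* and *Oas1g* both carry 2 overlapping ISRE cores within 20 bases of the start, and the GAS core seen in *Oas1a* is not in *Oas1g*. Over the 250 bases before the start they shared 212 of 244 aligned bases, with 12 gap positions, and whether the probes of one also bind the RNA of the other was not tested, so their separate values are uncertain. In *Bst2* a GAS core runs into 2 ISRE cores, in *Isg15* 3 ISRE cores overlap in a row, and in *Ifit1* 2 ISRE cores stand apart on the other strand. *Irgm1*, which rose, and *Oas1a*, which fell, both have the overlapping pair of ISRE cores within 30 bases of the start. *Irf1* has the GAS core alone.

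**Figure D3:**
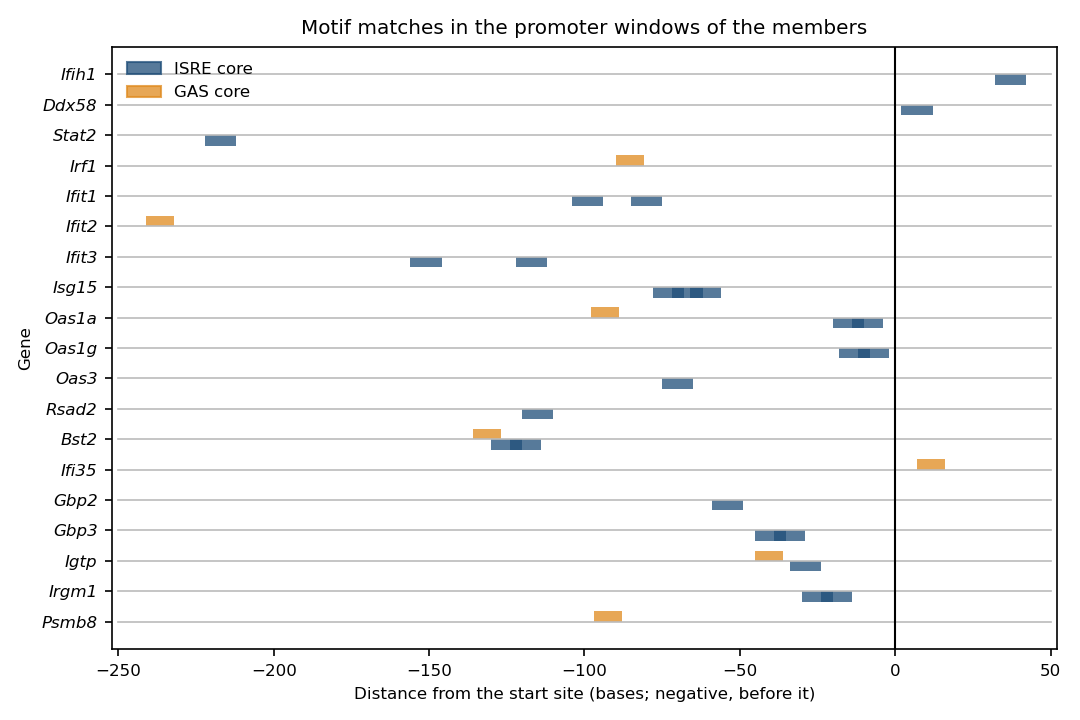
Position of each ISRE core (blue) and GAS core (orange) in the promoter windows of the 19 members with a match, as distance in bases from the start site, from 250 before to 50 after. Most matches lie before the start, and those of *Ifih1*, *Ddx58* and *Ifi35* lie after it.

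In liver, 3 of 34 members had a p below 0.05 before adjustment, beside 13.3% of all genes, and none passed it. *Oasl2* measured 3.89, 4.05, 4.03 and 4.13 in wild type and 3.33, 4.00, 3.55 and 3.72 in knockout. Knockout mouse 2 lay among the wild-type mice and the others below them. The change was -0.37 (SE 0.13, limma adjusted p = 0.231). *Oasl1* measured 4.70, 4.98, 4.89 and 4.86 in wild type and 5.08, 5.56, 5.06 and 5.07 in knockout. It was the only member whose liver groups did not overlap, with every knockout mouse higher, beside 3.62% of all genes. No member had every knockout mouse lower, beside 4.16%. Its change was 0.34 (SE 0.12, limma adjusted p = 0.247). *Xaf1*, an interferon-induced promoter of cell death, measured 4.70, 4.29, 4.46 and 4.51 in wild type and 4.63, 4.81, 4.59 and 4.91 in knockout. The lowest 2 knockout mice lay below the highest wild-type mouse, and the change was 0.24 (SE 0.10, limma adjusted p = 0.342). *Iigp1*, a GTPase, ranged from 8.44 to 8.70 in wild-type and from 8.52 to 8.79 in knockout liver, and *Gbp6* from 1.49 to 1.58 and from 1.23 to 1.55.

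Knockout mouse 2 stood above the other knockout mice in liver. It was known beforehand, from these same data, to stand apart there, so its values in liver are a description. It was the highest of the 4 knockout mice for 26 of the 34 members, beside 23.7% of all genes, and the highest of all 8 mice for 17, beside 11.1%. Its median distance to the mean of the other 3 knockout mice was 0.23 over the members and -0.01 over all genes. The distance was widest for *Usp18*, which measured 4.69, 5.13, 5.12 and 5.19 in wild type and 4.86, 5.77, 4.99 and 5.05 in knockout. *Ifi44* measured 3.70, 3.80, 4.10 and 4.14 in wild type and 3.32, 4.37, 3.69 and 3.88 in knockout. The antiviral GTPase gene *Mx1* measured 1.59, 1.79, 1.66 and 1.79 in wild type and 1.88, 2.38, 1.66 and 1.85 in knockout. In all 3, which were chosen by this distance, knockout mouse 2 was the highest of the 8 mice. *Mx1* lay below the median gene of the liver arrays. Without this mouse the median change of the members in liver was -0.02 instead of 0.04, *Usp18* gave -0.07 instead of 0.13, and *Oasl2* -0.49 (adjusted p = 0.0619).

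Macrophage markers of the liver also separated this mouse from its group. Kupffer cell markers averaged 5.12 in knockout mouse 2 and 3.87, 4.38 and 4.25 in knockout mice 1, 3 and 4, beside 4.99 to 6.20 in wild type, and macrophage markers 4.82 in mouse 2 and 3.96 to 4.15 in the other knockout mice. Endothelial markers averaged 4.35 in mouse 2 and 3.57 to 3.90 in the other knockout mice, beside 4.55 to 4.69 in wild type. Of the lists of immune cells, mouse 2 was the highest of the 8 livers for lipid-associated macrophages (4.70) and NK cells (2.38), and not for T cells, B cells or plasmacytoid dendritic cells, which averaged at most 2.77, 2.72 and 3.28 in any liver. The part of these cells in the distance of mouse 2 was not tested.

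The same mouse was high again in both white depots. It was the highest knockout mouse for 24 members in eWAT, 26 in iWAT and 10 in BAT, beside 27.4%, 24.8% and 23.7% of all genes. It was the highest of all 8 mice for 11 members in eWAT, 6 in iWAT and 2 in BAT, beside 8.64%, 7.46% and 12.8% of all genes. For 17 of the 34 members it was the highest knockout mouse in liver, eWAT and iWAT alike, beside 3.70% of all genes, among them *Ddx58*, *Irf9*, *Irf7*, *Ifit1*, *Isg15*, *Usp18*, *Bst2* and *Tap1*. That count takes in liver, where this mouse was known beforehand to stand apart, so it is a description as well. Knockout mouse 1 was the lowest knockout mouse for 15 members in liver, 13 in eWAT, 22 in iWAT and 18 in BAT, beside 22.9%, 21.8%, 30.5% and 20.8% of all genes. Wild-type mouse 4 was the highest wild-type mouse for 16, 17, 25 and 21 members, beside 25.7%, 21.9%, 30.1% and 24.3%.

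The mean of the 34 members was taken in each mouse, with the wild-type mean of each tissue set to 0. In liver it was -0.02, -0.03, -0.02 and 0.07 in wild-type mice 1 to 4 and -0.11, 0.22, -0.05 and 0.00 in knockout mice 1 to 4. In eWAT it was 0.02, -0.10, -0.04 and 0.12 in wild type and -0.40, 0.11, -0.19 and -0.31 in knockout. In iWAT it was -0.13, -0.26, -0.06 and 0.45 in wild type and -0.77, 0.01, -0.39 and -0.46 in knockout. The groups overlapped in each of these tissues, through knockout mouse 2 in eWAT and iWAT and also through mouse 4 in liver. In BAT it was 0.09, -0.18, -0.11 and 0.20 in wild type and -0.34, -0.08, -0.08 and -0.02 in knockout. Wild-type mouse 4 was the highest wild-type mouse and knockout mouse 1 the lowest knockout mouse in all 4 tissues.

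Averaged over the 4 tissues, the mean of the members was -0.01, -0.14, -0.06 and 0.21 in wild-type mice 1 to 4 and -0.40, 0.07, -0.17 and -0.20 in knockout mice 1 to 4. Knockout mice 1, 3 and 4 lay below every wild-type mouse and knockout mouse 2 above all but wild-type mouse 4. The knockout mean was -0.18 ± 0.19 (SD, n = 4) and the wild-type mean 0.00 ± 0.15 (SD, n = 4), a difference of about the spread between mice. It was -0.10 with iWAT left out and -0.24 with liver left out. Without knockout mouse 2 the knockout mean was -0.26.

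**Figure D4:**
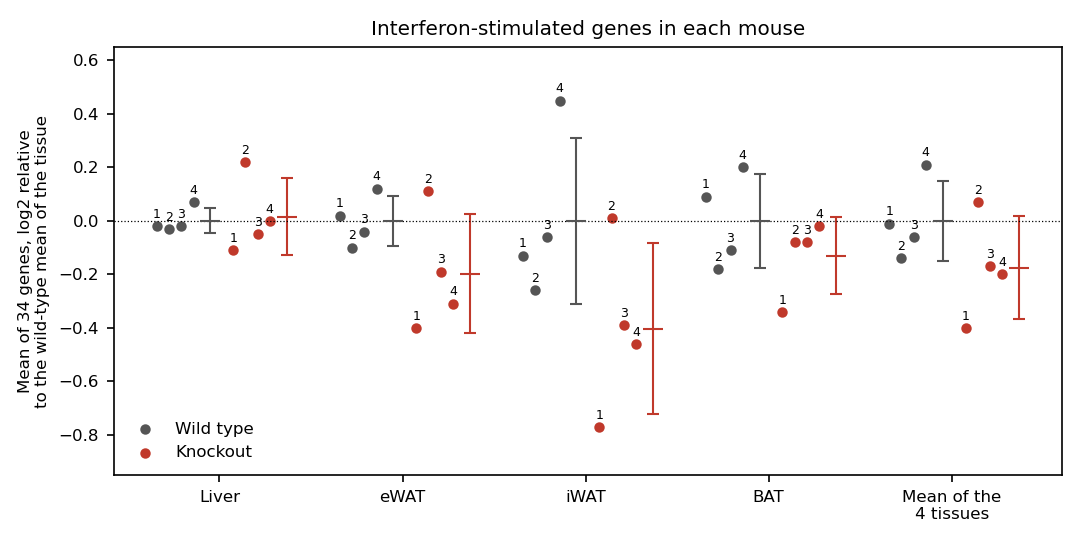
Mean log2 value of the 34 members in each mouse, with the wild-type mean of each tissue set to 0, for wild-type (grey) and knockout (red) mice numbered 1 to 4, with group mean and SD, in each tissue and averaged over the 4 tissues. Knockout mouse 2 is the highest knockout mouse in liver (0.22), eWAT (0.11) and iWAT (0.01), and knockout mouse 1 the lowest in every tissue.

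**Figure D5:**
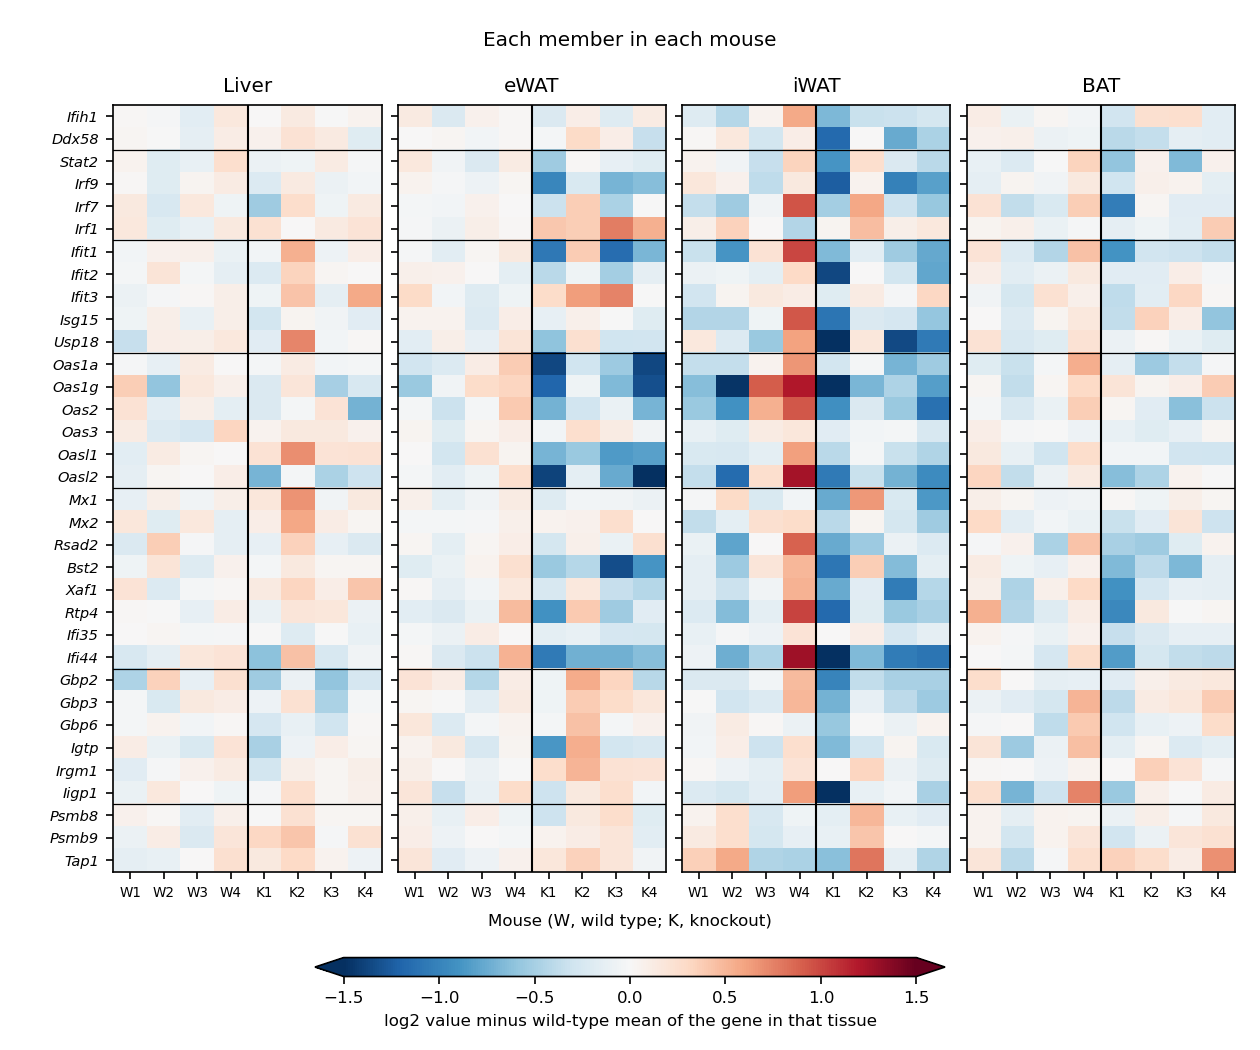
log2 value of every member (rows, grouped by role) in every mouse (columns; W, wild type and K, knockout) minus the wild-type mean of that gene in that tissue. The column of knockout mouse 2 is above 0 for most members in liver, and in iWAT wild-type mouse 4 is high and knockout mouse 1 low across most roles.

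In iWAT, 29 of the 34 members had the lower mean in the knockout, but the mice of a group spread widely and no member was called. The knockout mean was the lower one for both RNA sensors, all 6 OAS genes, all 8 other antiviral effectors and 5 of 6 GTPases. A p below 0.05 before adjustment was seen for 7 members, all lower (beside 15.4% of all genes), namely *Ddx58*, *Irf9*, *Usp18*, *Xaf1*, *Ifi44*, *Gbp2* and *Gbp3*. *Gbp2*, a guanylate-binding protein that attacks the membranes around microbes, measured 6.53, 6.53, 6.70 and 7.22 in wild type and 5.75, 6.38, 6.26 and 6.26 in knockout. It was the only member whose groups did not overlap, with all knockout mice below, beside 3.86% of all genes. No member had all knockout mice above, beside 4.29%. Its change was -0.58 (SE 0.19, limma adjusted p = 0.246). *Irf9* measured 6.26, 6.15, 5.70 and 6.23 in wild type and 4.85, 6.14, 5.07 and 5.27 in knockout. Only knockout mouse 2 reached the wild-type range. The change was -0.75 (SE 0.26, limma adjusted p = 0.262), and without that mouse -1.02 (0.0428). This was the only call of a member in iWAT when a mouse was left out, beside 0.921% of all genes called without that mouse. *Ifi44* measured 6.32, 5.67, 5.94 and 7.67 in wild type and 4.69, 5.74, 5.35 and 5.31 in knockout, with a change of -1.13 (SE 0.41, limma adjusted p = 0.266). Here wild-type mouse 4 stood far above the other 7 mice. *Bst2* had the highest wild-type mean of the members in iWAT and measured 7.78, 7.37, 8.10 and 8.41 in wild type and 6.83, 8.29, 7.27 and 7.77 in knockout, a change of -0.38 (adjusted p = 0.561). The lowest, *Gbp6*, measured 1.86, 2.04, 1.94 and 1.83 in wild type and 1.35, 1.91, 1.83 and 1.97 in knockout. The groups overlapped in both.

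Other cells differed between the iWAT arrays. B cell markers averaged 7.92 and 7.86 in wild-type mice 1 and 2 and 7.58 and 5.84 in knockout mice 2 and 4, and between 3.26 and 3.73 in the other 4 mice. Each class of 4 mice holds 2 of each genotype, so the values within a class are descriptions of few mice. Within the first 4, the median difference of the members, knockout minus wild type, was 0.01, with 16 of 34 lower, and that of all genes 0.01. Within the other 4, wild-type mice 3 and 4 and knockout mice 1 and 3, it was -0.85, with 30 of 34 lower, and that of all genes 0.02. That class holds the highest wild-type mouse of the members' mean in iWAT, mouse 4, and the lowest knockout mouse, mouse 1. With the class as a block, a fit added after seeing the data, 0 members were called, beside 0.0203% of all genes. Because each class holds 2 mice of each genotype, this block cannot alter a log2 change. The median of the members therefore stayed at -0.39, which says nothing of the part of the class. Among the antigen processing genes, *Tap1* measured 7.70, 7.91, 6.89 and 6.87 in wild type and 6.72, 8.14, 7.21 and 6.89 in knockout, highest in the 3 mice with the highest B cell markers, wild-type mice 1 and 2 and knockout mouse 2. Skeletal muscle markers averaged 5.23 in wild-type mouse 4 and between 3.20 and 3.84 in the other iWAT, and without that mouse the median of the members was -0.21 instead of -0.39. Macrophage markers averaged from 6.64 to 7.81 in wild type and from 5.94 to 6.85 in knockout, with 0 of 8 called. The part of these cells in the values of the members was not tested.

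In BAT, 5 of 34 members had a p below 0.05 before adjustment, all lower, beside 12.7% of all genes, and none passed it. *Bst2* measured 5.51, 5.33, 5.27 and 5.45 in wild type and 4.73, 5.0, 4.72 and 5.25 in knockout. All knockout mice were below all wild-type mice, mouse 4 narrowly. The change was -0.47 (SE 0.12, limma adjusted p = 0.167). *Ifi44* measured 5.08, 5.05, 4.82 and 5.35 in wild type and 4.24, 4.81, 4.71 and 4.68 in knockout, again without overlap, with a change of -0.47 (SE 0.14, limma adjusted p = 0.213). *Ddx58*, which encodes the RNA sensor RIG-I, measured 4.97, 4.98, 4.81 and 4.84 in wild type and 4.49, 4.54, 4.77 and 4.74 in knockout, and its change was -0.27 (SE 0.09, limma adjusted p = 0.264). Its groups did not overlap either, nor did those of *Ifi35*, 4 members in all and all with lower knockout values, beside 3.92% of all genes. No member had all knockout mice above, beside 3.31%. *Mx1* lay between 1.45 and 1.62 in all 8 mice, and *Iigp1* between 4.83 and 6.27 in wild type and 4.97 and 5.65 in knockout. Skeletal muscle markers averaged 6.76 and 7.81 in wild-type mice 2 and 3 and 7.93 in knockout mouse 2, and between 3.06 and 4.06 in the other 5. Among those 5 mice, 2 wild-type and 3 knockout, the median of the members was -0.25, with 29 of 34 lower, beside a median of all genes of 0.00 with 49.2% lower. Among the 3 mice with high muscle markers it was 0.06, with 15 of 34 lower, beside a median of all genes of -0.01 with 51.2% lower. Those 3 hold 1 knockout mouse, too few for a comparison. With the class as a block, a fit added after seeing the data, the median of the members was -0.16 and 0 members were called. The part of muscle in these values was not tested.

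Knockout means were lower in all 3 fat depots for 18 of the 34 members, *Ifi44* and *Bst2* among them, beside 20.2% of all genes. In liver *Bst2* measured 7.58, 7.84, 7.45 and 7.71 in wild type and 7.62, 7.79, 7.68 and 7.67 in knockout. Whether the change of a member differed between tissues was tested on the difference between tissues within each mouse, for 6 pairs of tissues. A difference in scale between the tables of 2 tissues would enter this test. Between liver and eWAT, 5 members differed past the threshold, beside 8.37% of all genes. The change of *Oasl1* was 0.34 in liver and -0.73 in eWAT, a difference of 1.07 (95% interval 0.74 to 1.40, limma adjusted p = 0.00554). *Irf9* gave -0.05 and -0.63, a difference of 0.58 (0.30 to 0.86, limma adjusted p = 0.0198), and *Bst2* 0.05 and -0.79, a difference of 0.84 (0.40 to 1.28, limma adjusted p = 0.0272). *Oas1a* differed by 0.90 (limma adjusted p = 0.0391), though its liver values lay below the median gene of those arrays, and *Ifit1* by 0.75 (0.0406). In all 5 the eWAT change was the lower one. Between eWAT and BAT, *Irf9* alone differed, with -0.63 and -0.08 (difference -0.56, 95% interval -0.86 to -0.26, limma adjusted p = 0.0358), beside 6.93% of all genes. Of the other 4 pairs none gave a call among the members with limma, where 0.00406% (liver and iWAT), 0.0893% (liver and BAT), 0.0% and 0.0% of all genes were called. Before adjustment 10 members had a p below 0.05 between liver and iWAT, 5 between liver and BAT, 6 between eWAT and iWAT and 5 between iWAT and BAT, beside 11.0%, 9.41%, 10.8% and 9.58% of all genes. In the pairs of eWAT with liver and with BAT these counts were 12 and 5, beside 21.3% and 20.3%. These calls depended on the mice. Between liver and eWAT the count was 7 without knockout mouse 2, beside 12.7% of all genes, and 1 to 4 with any other mouse left out, beside 3.72% to 7.03%. Between eWAT and BAT it was 4 without knockout mouse 2, beside 10.2% of all genes, and 0 with any other mouse left out, beside 2.41% to 4.68%. The single call between eWAT and BAT was also lost with quantile normalization and without pairing the tissues by mouse.

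Other genes of the pathway were taken from a list of 100 ligands, receptors, kinases, inhibitors, interferon-inducing sensors and further interferon-stimulated genes, of which 96 were measured. In eWAT, 22 of them were called (22.9%, against 15.2% of all genes). Of these calls 19 were lower (19.8%, against 10.7%) and 3 higher (3.12%, against 4.57%). With the genes below the median level left out, 31.1% of the remaining genes were called and 22.3% called lower. The count of pathway genes in that fit is not given here. Among the 45 further interferon-stimulated genes, the share called was 13.3%, below that of all genes, with 3 lower (6.67%) and 3 higher (6.67%). In liver, iWAT and BAT 0 of the 96 were called by limma, beside 0.661%, 0.0% and 0.0284% of all genes. Before adjustment 18, 24 and 15 of the 96 had a limma p below 0.05, beside 13.3%, 15.4% and 12.7% of all genes. None of the 21 interferon ligands was called in any tissue. With 1 mouse left out the eWAT count ranged from 10, without wild-type mouse 3 or 4, to 29, without knockout mouse 2. Of all genes, 8.96% and 6.73% were called without wild-type mouse 3 and 4, and 22.0% without knockout mouse 2.

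All 6 interferon receptor genes had the lower mean in knockout eWAT, and 4 were called lower (66.7%). Of all genes 10.7% were called lower, and 22.3% of those that remained with genes below the median level left out. *Ifnar1* measured 7.63, 7.75, 7.85 and 7.83 in wild type and 6.97, 7.54, 6.90 and 6.90 in knockout, a change of -0.69 (limma adjusted p = 0.0156). *Ifngr1* measured 9.23, 9.29, 9.29 and 9.36 in wild type and 8.84, 8.90, 8.38 and 8.71 in knockout, a change of -0.58 (limma adjusted p = 0.0132). *Ifngr2* measured 7.55, 7.68, 7.42 and 7.61 in wild type and 6.45, 7.15, 6.37 and 5.92 in knockout, a change of -1.09 (limma adjusted p = 0.0135). *Il10rb*, the shared chain of the type III receptor, fell by 1.03 (limma adjusted p = 0.0135). The groups of the 4 called receptors did not overlap, and knockout mouse 2 was the highest knockout mouse in *Ifnar1*, *Ifngr1*, *Ifngr2* and *Il10rb*. *Ifnar2* measured 8.64, 8.69, 8.85 and 8.74 in wild type and 8.34, 8.66, 8.19 and 8.17 in knockout, where mouse 2 reached the wild-type range, and it was not called (change -0.39, adjusted p = 0.0528).

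No receptor was called elsewhere. In iWAT *Ifngr1* measured 9.04, 8.96, 9.01 and 9.25 in wild type and 8.49, 8.55, 8.34 and 8.82 in knockout (change -0.52, adjusted p = 0.221), and the groups did not overlap. *Ifngr2* measured 7.2, 7.30, 7.18 and 6.93 in wild type and 5.96, 7.13, 6.37 and 6.59 in knockout (-0.64, 0.26), with mouse 2 again the highest knockout mouse. *Ifnar1* ranged from 7.49 to 7.62 in wild type and was 7.05, 7.48, 7.46 and 7.46 in knockout (-0.19, 0.426), and *Ifnar2* from 8.36 to 8.64 and from 8.32 to 8.44 (-0.13, 0.52). In liver *Ifngr1* measured 5.43, 5.48, 5.38 and 5.39 in wild type and 4.84, 5.5, 5.02 and 4.84 in knockout (-0.37, 0.259), where knockout mouse 2 was the highest of the 8 mice and the other 3 the lowest. *Ifngr2* ranged from 6.32 to 6.53 and from 5.96 to 6.36 (-0.19, 0.434), *Ifnar1* from 6.33 to 6.47 and from 6.27 to 6.39 (-0.03, 0.889), and *Ifnar2* from 8.18 to 8.61 and from 8.25 to 8.64 (0.06, 0.875). In BAT *Ifngr1* measured 7.51, 7.67, 7.34 and 7.38 in wild type and 7.29, 7.35, 7.12 and 7.08 in knockout (-0.27, 0.302), and mouse 2 was the only knockout mouse to reach the wild-type range. *Ifngr2* ranged there from 6.18 to 6.42 and from 5.85 to 6.37 (-0.10, 0.788), *Ifnar1* from 6.83 to 6.97 and from 6.90 to 7.11 (0.11, 0.635), and *Ifnar2* from 8.61 to 8.78 and from 8.56 to 8.90 (0.02, 0.957).

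The kinase gene *Jak1* fell by 0.34 in eWAT (limma adjusted p = 0.0293). Of 5 inhibitors, 4 had the lower mean in the knockout and 3 were called lower (60.0%, against 10.7% of all genes). Of 15 genes that induce interferon, 14 had the lower mean and 8 were called lower (53.3%). With genes below the median level left out, 22.3% of the remaining genes were called lower. The 5 pathway genes with the largest change among the calls all fell. *Ifi204*, a DNA-binding interferon-induced gene, measured 6.73, 6.98, 6.87 and 6.92 in wild type and 4.57, 6.61, 4.63 and 4.72 in knockout, a change of -1.74 (limma adjusted p = 0.0203). *Tlr7*, a sensor of single-stranded RNA, measured 6.07, 6.01, 5.72 and 5.71 in wild type and 3.41, 5.62, 3.92 and 3.83 in knockout, a change of -1.68 (limma adjusted p = 0.0229). In both, knockout mouse 2 lay just below the lowest wild-type mouse and far above the other knockout mice. The phosphatase gene *Ptpn6* measured 7.22, 7.17, 7.47 and 7.07 in wild type and 4.90, 6.64, 6.20 and 5.14 in knockout, a change of -1.51 (limma adjusted p = 0.0198). *Ikbke*, a kinase gene of the pathway that induces interferon, measured 6.04, 5.90, 6.55 and 6.02 in wild type and 4.82, 5.85, 4.21 and 4.39 in knockout, a change of -1.31 (limma adjusted p = 0.0247). *Tmem173*, which encodes STING, measured 6.16, 6.20, 5.97 and 6.24 in wild type and 4.51, 5.63, 4.72 and 4.51 in knockout, a change of -1.30 (limma adjusted p = 0.0103). The groups did not overlap in any of the 5, and knockout mouse 2 was the highest knockout mouse in each. It was also the knockout mouse nearest to wild type in the macrophage markers of eWAT, which were lower in the knockout. The part of these cells in the changes of the pathway genes, receptors included, was not tested.

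The 3 pathway genes that rose in eWAT were *Cxcl9*, *Gvin1* and *Tap2*. *Cxcl9*, a chemokine that IFN-γ induces and that draws T cells, measured 7.39, 7.43, 7.66 and 7.79 in wild type and 8.81, 8.44, 8.58 and 9.20 in knockout. Every knockout mouse was above every wild-type mouse. Its change was 1.19 (SE 0.16, limma adjusted p = 0.00783). *Gvin1*, a large interferon-inducible GTPase, gave 0.95 (0.0124) and *Tap2*, the partner of TAP1 in the peptide transporter, 0.38 (0.0398). T cell markers averaged between 2.87 and 3.41 in wild-type and between 2.89 and 3.59 in knockout eWAT, with 0 of 6 called, and NK cell markers between 2.62 and 2.76 and between 2.50 and 2.69, with 1 of 5 called lower.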

How the data were processed

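Per the labels, RNA of 4 tissues of 4 wild-type and 4 knockout mice was hybridised to 1 array each. The authors deposited 1 table of log2 expression values per tissue, already normalized by a method not given in the sources used here, with 1 value per gene symbol. For 840 genes, 0 of them members, the identifier is a fraction, as averaging over several probe sets gives. Entries whose name was blank or had turned into a number, 1 or 2 per tissue, were left out, which left 24646 genes. The tables have medians of their own, so levels were tested only within a table. Tests between tissues subtracted the values of 1 table from those of another. Constants of a table cancel there, but a difference in scale between tables does not. Precision is limited by the number of arrays.

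Genotypes were compared with limma 3.58.1 (R 4.3.3) over all genes with the Benjamini-Hochberg adjustment. The p-values measure the spread between the mice of a group. Changes between tissues were compared in a limma fit on the differences of each mouse between 2 tissues, since the labels number the mice alike in every tissue. Samples of the same number and genotype correlated in 2 tissues with a mean r between 0.0161 and 0.113 after removal of group means. For samples of other numbers it was between -0.0374 and -0.00536. Removing group means largely fixes this second value once the first is given, so it is no separate contrast. The best match in the second tissue had the same number for 0 of 4 mice (iWAT and BAT, wild type) to 4 of 4 (eWAT and iWAT, wild type). Intervals are 95% intervals of the fit. Array classes were split at a mean marker value of 5. Promoter windows are those of RefSeq (GRCm38.p6). Alternatives were quantile normalization, equal array medians, a trended and robust prior, array weights, dim genes left out, the methods' t-test, the mouse number as a block and each array left out. Fits with B cell or muscle marker class as a block were added after seeing the data. The fits were tested on simulated data. Figures were drawn with matplotlib 3.10.9.

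The members, the pathway list and the marker lists were chosen with earlier results of these data known. Full values are given for members past the threshold in a tissue or, where there was none, the 3 with the smallest p, for the members with the highest and lowest wild-type mean in a tissue, for the 3 members in which knockout mouse 2 stood highest in liver, and for the 5 largest pathway calls, and values or ranges for the interferon receptors. *Tap1*, *Ifit1* and *Bst2* in liver were added after their values were seen. The values of 1 gene that this rule names are not reported here.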

Additional observations from a re-analysis of the deposited data

Results flagged for a closer look

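The difference between the change in liver and the change in eWAT was past the threshold for *Oasl1* (adjusted p = 0.00554), *Irf9* (0.0198), *Bst2* (0.0272), *Oas1a* (0.0391) and *Ifit1* (0.0406), and that between eWAT and BAT for *Irf9* (0.0358), all from the limma fit on differences within each mouse. The eWAT change was the lower one in each.

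In 3 groups of 4 mice, 1 value lay far from the others by Dixon's ratio, the gap to the nearest value over the whole range. The mean of the members in wild-type liver had a ratio of 0.963, with mouse 4 at 0.07 and the others at -0.02 or -0.03. *Oasl1* in knockout liver had 0.966, with mouse 2 at 5.56 and the others between 5.06 and 5.08. *Usp18* in wild-type liver had 0.855, with mouse 1 at 4.69 and the others between 5.12 and 5.19. Of 64 groups examined, chance flags about 1 in 20.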

How the results depend on the processing

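The direction of the median change of the members was the same under every setting in eWAT, iWAT and BAT. Some settings cannot alter a log2 change, so their agreement was fixed in advance. These were the trended and robust prior, the t-test, the replicate block and, in iWAT, the B cell class block. In liver the direction turned without knockout mouse 2, and the median ranged from -0.02 to 0.07 when 1 mouse was left out. The ranges were -0.17 to -0.04 in eWAT, -0.54 to -0.21 in iWAT and -0.20 to -0.05 in BAT.

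The 8 calls in eWAT, beside 15.2% of all genes, became 5 after quantile normalization (beside 15.2%) and 5 with the replicate number as a block (beside 13.8%). They became 0 with the methods' t-test after adjustment (beside 0.154%), and 3 to 12 when 1 mouse was left out (beside 5.88% to 22.0%). The replicate numbers did not pair wild-type with knockout mice, whose same-numbered deviations correlated with r between -0.385 and 0.669, so the block result is given here alone. It changed the count of member calls in no other tissue. The methods' t-test before adjustment gave 2 members in liver, 1 in iWAT and 4 in BAT, beside 11.8%, 12.8% and 11.4% of all genes. Leaving out 1 mouse gave 0 to 1 calls of members in iWAT. For the pathway list it gave 0 to 4 in liver, 10 to 29 in eWAT and 0 to 4 in iWAT. In these fits 0.166% to 1.22% of all genes were called in liver, 5.88% to 22.0% in eWAT and 0.0% to 0.921% in iWAT. The 5 calls between liver and eWAT were 3 without the pairing of tissues by mouse (no replicate block), beside 8.53% of all genes. They were 1 to 7 with 1 mouse left out, beside 3.72% to 12.7%. The 1 call between eWAT and BAT was 0 after quantile normalization and 0 without the pairing, beside 7.02% and 5.98% of all genes. It was 0 to 4 with 1 mouse left out, beside 2.41% to 10.2%. *Usp18* in liver reversed to -0.07 without knockout mouse 2 (range -0.07 to 0.24 with 1 mouse left out), and *Ifi44* in liver to 0.05 without knockout mouse 1 (range -0.30 to 0.05). The cause was not tested.

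Of 305 values of single genes under another setting, 255 kept direction and side of the threshold, 47 lost a call, 1 gained one and 2 turned.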
